A study of Homo sapiens with 6 samples.

Results

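The genes described here encode the subunits, regulators and assembly factors of the proteasome, taken as every row of the deposited count table whose symbol starts with PSMA, PSMB, PSMC, PSMD, PSME, PSMF or PSMG. There were 49 such genes of 19475 in all: 8 PSMA, 11 PSMB, 7 PSMC, 14 PSMD, 4 PSME, 1 PSMF and 4 PSMG. Of these, 48 are named for the proteasome, and PSMC3IP shares only the first letters. RNA was sequenced from MH7A cells, an immortalised synovial fibroblast line from rheumatoid arthritis, after removal of ribosomal RNA. Every library came from cells given the inflammatory cytokine TNFα at 10 ng/ml. The TNF group had TNFα alone (replicates 2, 8 and 14, n = 3), and the LED group had TNFα plus exposure to a red LED (630 nm) lasting 15 min and given 3 times (replicates 4, 6 and 10, n = 3). No group without TNFα and no sham-lit or warmed group was analysed here, so light and any warming by the lamp cannot be told apart.

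The proteasome is the main protease of the cytosol and nucleus and breaks down proteins tagged with ubiquitin. Its 20S core is a barrel of alpha rings around beta rings, with the cutting sites on the beta subunits PSMB5, PSMB6 and PSMB7. A 19S cap holds ATPases that unfold the substrate and non-ATPase subunits that bind and remove ubiquitin. Interferon gamma and TNFα can raise PSMB8, PSMB9 and PSMB10, which replace the 3 constitutive cutting subunits in newly built cores and change the peptides made for class I antigen presentation.

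Values are CPM, the estimated counts of each library scaled to a common total. Deposited totals lay between 86000253 and 108074289 per library, with 14079 to 14943 genes above 0. The fibroblast markers COL1A1, COL1A2, COL3A1, VIM, FN1, THY1, CDH11 and PDPN were present in all 6 libraries, with COL1A1 at 8705 to 14262 CPM, but PRG4, the lubricin of lining fibroblasts, did not exceed 0.0787 CPM. Of 8 markers of other cells, CD3E was at 0 throughout, PTPRC and PECAM1 were at 0 in 5 of 6 libraries, and EPCAM did not exceed 0.0923 CPM. CD68 (92.2 to 153 CPM) and KRT18 (28.4 to 46.2 CPM) were present in both groups, CD14 was at most 0.830 CPM, and VWF was at 0.369 to 1.10 CPM with TNF and 1.44 to 1.93 CPM with LED. Summed fibroblast markers were 37838 to 40820 CPM in TNF and 33256 to 35946 CPM in LED libraries, and summed other markers were 125 to 173 and 145 to 202 CPM. The part of these sums in the results was not tested.

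Transcripts of the proteasome as a whole differed between the groups by less than the spread of the libraries. Summed over the 48 genes, they were 5221, 6391 and 5598 CPM for replicates 2, 8 and 14 of TNF, and 5421, 6748 and 5136 CPM for replicates 4, 6 and 10 of LED; values are given in this order throughout. The means were 5737 ± 597 and 5769 ± 860 CPM (SD, n = 3 each), and TNF replicate 8 and LED replicate 6 were the high libraries of their groups. The sum made up 0.523% to 0.632% of all counts. In bulk RNA, fewer cells expressing a gene and less of its RNA per cell cannot be told apart.

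Of the 49 genes, 47 passed the filter on low counts. The exceptions were PSMA8, a core subunit known from testis that was at 0 in every library, and PSMB11, a thymus subunit that reached at most 0.135 CPM. A count of 0 still allows 0.108 to 0.138 CPM, counting error only. None of the 46 tested proteasome genes rose or fell at an adjusted p below 0.05 (edgeR's quasi-likelihood test, Benjamini-Hochberg over 13794 genes), whereas 713 of all tested genes did, or 5.17% (2.44% higher and 2.73% lower). At an unadjusted p below 0.05, 1 proteasome gene was higher (PSMD12) and 2 were lower (PSMB9 and PSMG1), beside 22.7% of all tested genes. Log2 fold changes of the 46 ran from -0.65 to 0.70 with a median of 0.02, against a median of 0.01 over all tested genes. The 95% interval stayed within a 2-fold change either way for 44 of the 46, all but PSMB9 and PSMD12, and within a 1.5-fold change for 25.

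**Figure D1:**
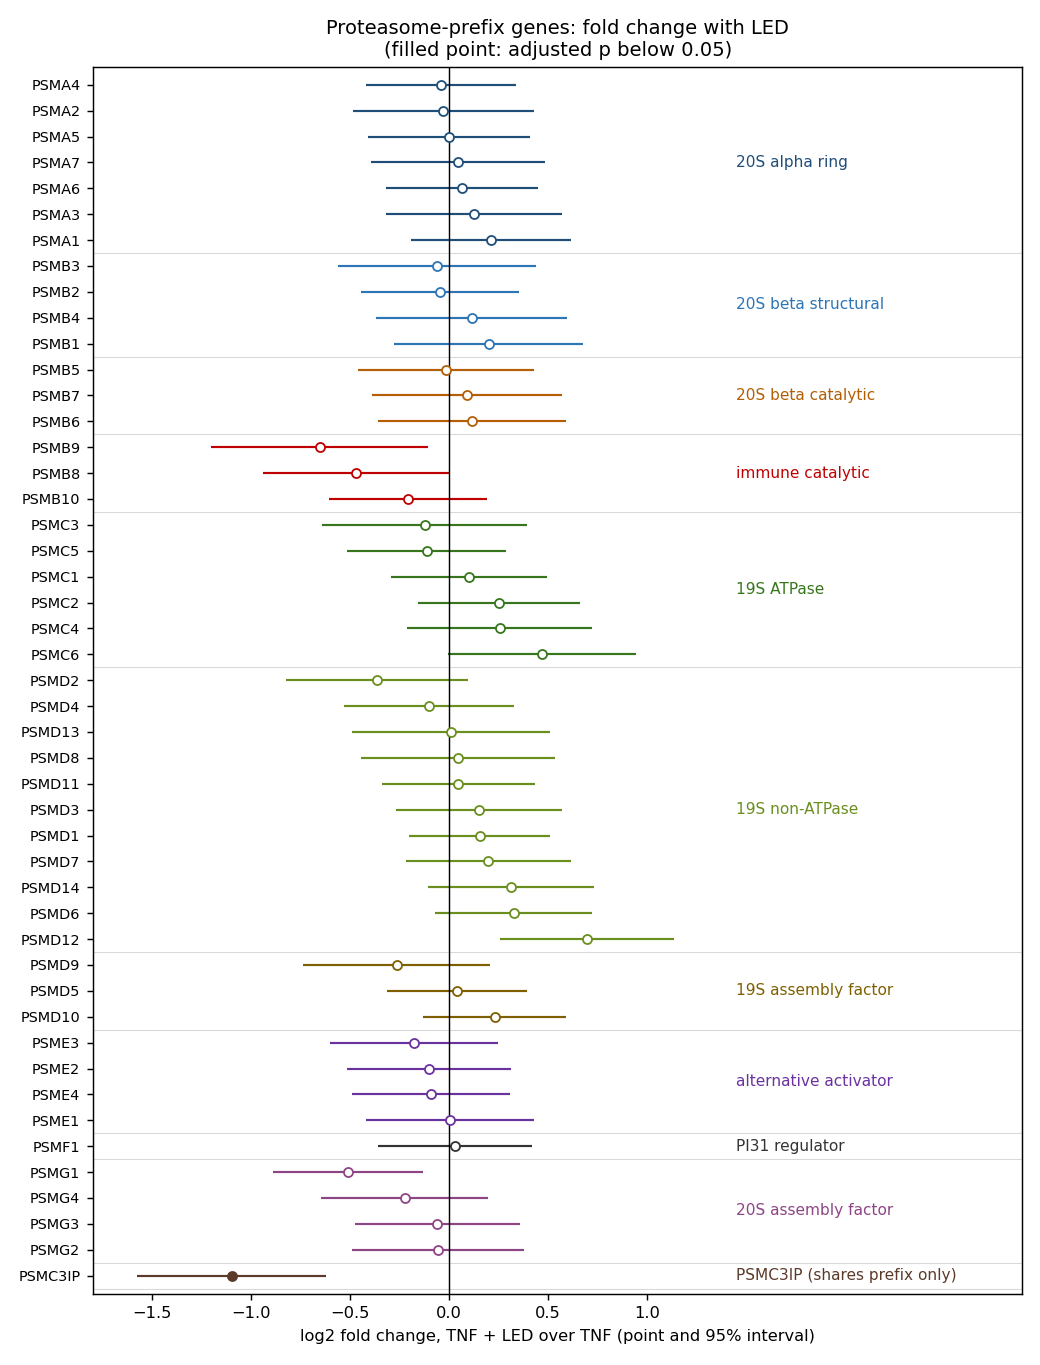
Log2 fold change of TNF plus LED over TNF for the 47 tested genes (point, with its 95% interval as a line), sorted by role; filled points passed an adjusted p of 0.05. The 3 immune subunits and the 4 core assembly factors all have points below 0, most 19S subunits have points above 0, and only PSMC3IP is filled.

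The constitutive 20S core showed small differences. None of its 14 subunits passed the test, none had groups that did not overlap, and their log2 fold changes ran from -0.06 to 0.21 (9 above 0, 5 below). Among all tested genes, 32.4% had groups that did not overlap. PSMA1, an alpha-ring subunit, was at 116, 105 and 116 CPM with TNF and 118, 157 and 115 CPM with LED, a log2 fold change of 0.21 ± 0.18 (SE; edgeR adjusted p = 0.530). LED replicate 6 was the high library and the other LED libraries lay within or just above the TNF range. PSMA3, also of the alpha ring, was at 102, 80.7 and 112 CPM with TNF and 98.8, 129 and 93.7 CPM with LED (log2 fold change 0.13 ± 0.20, edgeR adjusted p = 0.756). Its groups overlapped, with TNF replicate 8 lowest and LED replicate 6 highest. PSMA5 was nearest to no change in the alpha ring (log2 fold change 0.00). The structural beta subunits PSMB1, PSMB2, PSMB3 and PSMB4, which form the ring without cutting, had log2 fold changes from -0.06 to 0.20. PSMB1 had the highest of these, with 119, 151 and 120 CPM against 134, 192 and 122 CPM and overlapping groups, and PSMB4 was at 177, 230 and 173 CPM against 190, 267 and 171 CPM. In both, TNF replicate 8 and LED replicate 6 were the high libraries.

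The 3 constitutive cutting subunits had overlapping groups as well. PSMB5, the chymotrypsin-like site, was at 145, 208 and 150 CPM with TNF and 158, 191 and 149 CPM with LED. Its log2 fold change was -0.01 ± 0.20 (95% interval -0.46 to 0.43, edgeR adjusted p = 0.978). PSMB6, the caspase-like site, was at 59.5, 81.8 and 65.9 CPM with TNF and 71.9, 92.4 and 59.9 CPM with LED. TNF replicate 8 and LED replicate 6 were again the high libraries, and the log2 fold change was 0.11 ± 0.21 (95% interval -0.36 to 0.59, edgeR adjusted p = 0.793). PSMB7, the trypsin-like site, was at 145, 194 and 153 CPM with TNF and 160, 222 and 142 CPM with LED. Its log2 fold change was 0.09 ± 0.21 (95% interval -0.39 to 0.57, edgeR adjusted p = 0.839), with the same libraries high.

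All 3 immune subunits had lower means with LED, and none passed the test. PSMB9, which takes the place of PSMB6, lies head to head with TAP1, the peptide transporter gene, and shares its promoter region. The stretch from 200 to 51 bases before the PSMB9 start (RefSeq, GRCh38.p14, chr6:32853992-32854141, plus strand, no annotated exon) is shown because PSMB9 had the largest difference in the core. Capitals mark its match to the antioxidant response motif TGACNNNGC, here on the opposite strand.
PSMB9: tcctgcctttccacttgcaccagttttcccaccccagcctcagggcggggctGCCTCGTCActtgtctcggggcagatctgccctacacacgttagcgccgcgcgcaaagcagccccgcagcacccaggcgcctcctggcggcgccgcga

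PSMB9 was at 19.6, 33.8 and 33.1 CPM with TNF and at 15.01, 21.3 and 18.7 CPM with LED. TNF replicates 8 and 14 lay above every LED library, and TNF replicate 2 lay among them. The means were 28.8 ± 8.02 and 18.3 ± 3.16 CPM (SD, n = 3 each), a log2 fold change of -0.65 ± 0.24 (95% interval -1.20 to -0.11, edgeR adjusted p = 0.149). Leaving out TNF replicate 2 gave an adjusted p of 0.0481, and leaving out any of the other 5 libraries gave 0.239 to 0.408.

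PSMB8, which takes the place of PSMB5, was at 46.7, 76.6 and 71.8 CPM with TNF and 44.2, 49.5 and 47.3 CPM with LED. The LED libraries lay close together, and TNF replicate 2 fell inside their range. Its log2 fold change was -0.47 ± 0.21 (95% interval -0.94 to 0.0028, edgeR adjusted p = 0.222). PSMB10, which takes the place of PSMB7, was at 35.9, 40.8 and 47.4 CPM with TNF and 33.2, 40.3 and 34.0 CPM with LED, a log2 fold change of -0.21 ± 0.18 (95% interval -0.61 to 0.19, edgeR adjusted p = 0.539). Its groups overlapped, with TNF replicate 14 highest. PSMB8 and PSMB9 overlap each other on opposite strands in GENCODE 29. PSMB8-AS1 also overlaps both, on the strand opposite to PSMB8 and on the same strand as PSMB9. No source used here says whether the counting used strand, so reads of these genes may not be fully separated. Strand would not separate PSMB9 from PSMB8-AS1 in any case.

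**Figure D2:**
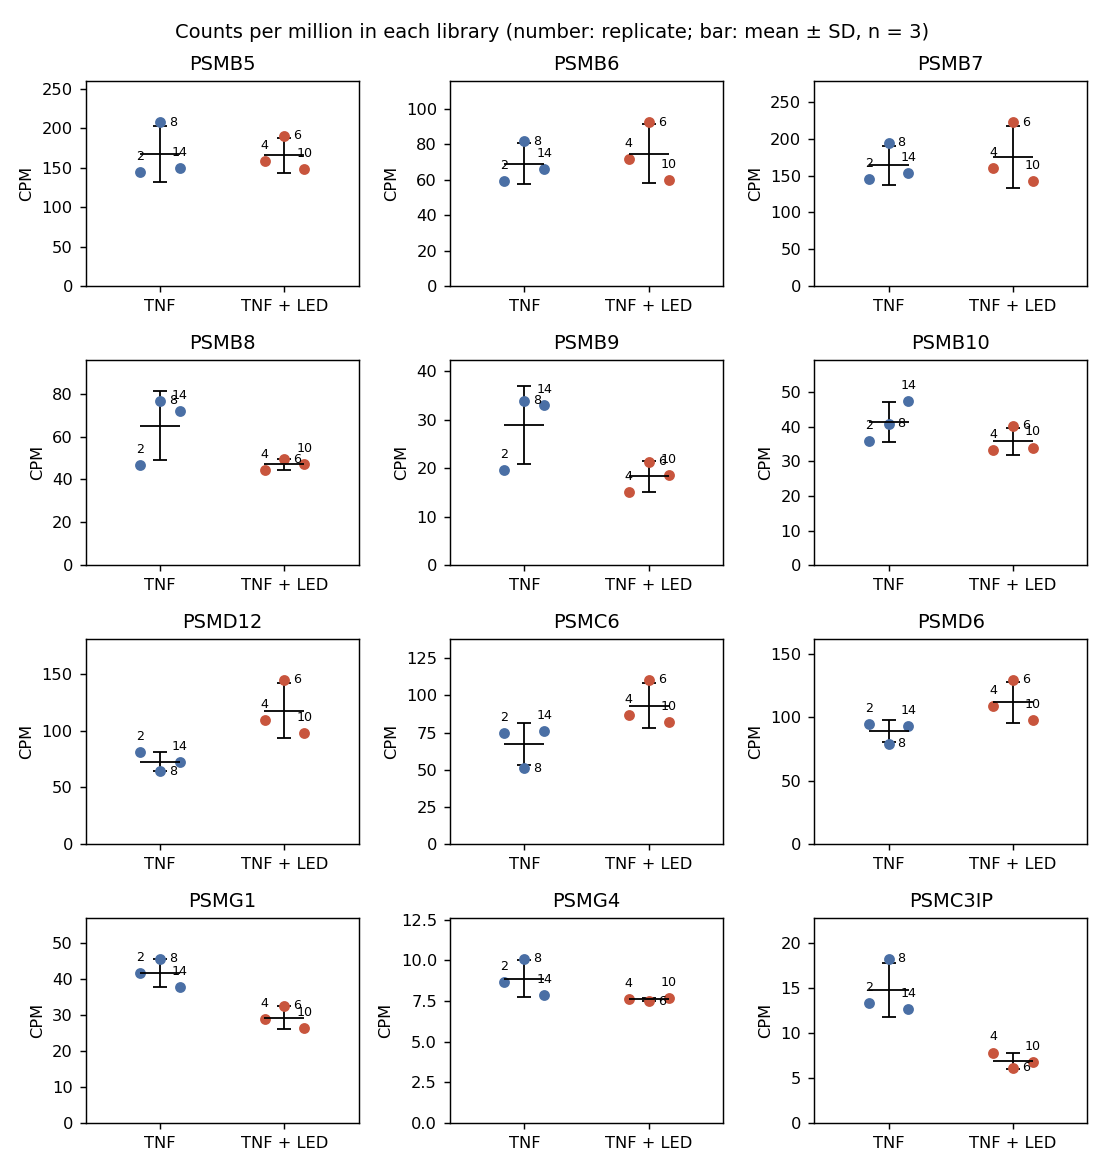
CPM of 12 genes in each library, with replicate numbers beside the points and the mean ± SD (n = 3) as bars; each vertical axis starts at 0. PSMB8 and PSMB9 have TNF replicate 2 down among the LED libraries, while PSMD12, PSMC6, PSMD6, PSMG1, PSMG4 and PSMC3IP have groups that do not overlap.

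A ratio of an immune subunit to the constitutive subunit of the same position, taken within a library, does not depend on library scaling. PSMB8 to PSMB5 was 0.323, 0.368 and 0.480 with TNF and 0.279, 0.259 and 0.318 with LED. Every TNF library lay above every LED library, with means of 0.390 ± 0.0810 and 0.285 ± 0.0299 (SD, n = 3 each). From the mean log2 ratios, as in the other pairs, it was 1.35-fold higher with TNF alone (exact two-sided permutation test, p = 0.1, adjusted over the 3 ratios p = 0.15). PSMB9 to PSMB6 was 0.329, 0.414 and 0.501 with TNF and 0.209, 0.230 and 0.312 with LED. These groups did not overlap either, and the ratio was 1.66-fold higher with TNF alone (0.415 ± 0.0862 against 0.250 ± 0.0543, exact permutation p = 0.1, adjusted 0.15). In both pairs the closest libraries were TNF replicate 2 and LED replicate 10, and the margin was small. They stood at 0.323 and 0.318 for PSMB8 to PSMB5, and at 0.329 and 0.312 for PSMB9 to PSMB6. How often other pairs of genes separate in this way was not computed. PSMB10 to PSMB7 was 0.248, 0.210 and 0.310 with TNF and 0.208, 0.181 and 0.239 with LED. Here TNF replicate 8 fell inside the LED range, and the 1.21-fold difference had an exact permutation p of 0.2 (adjusted 0.2). With 3 libraries against 3, the smallest p this test can give is 0.1, so none of the ratios could pass 0.05.

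**Figure D3:**
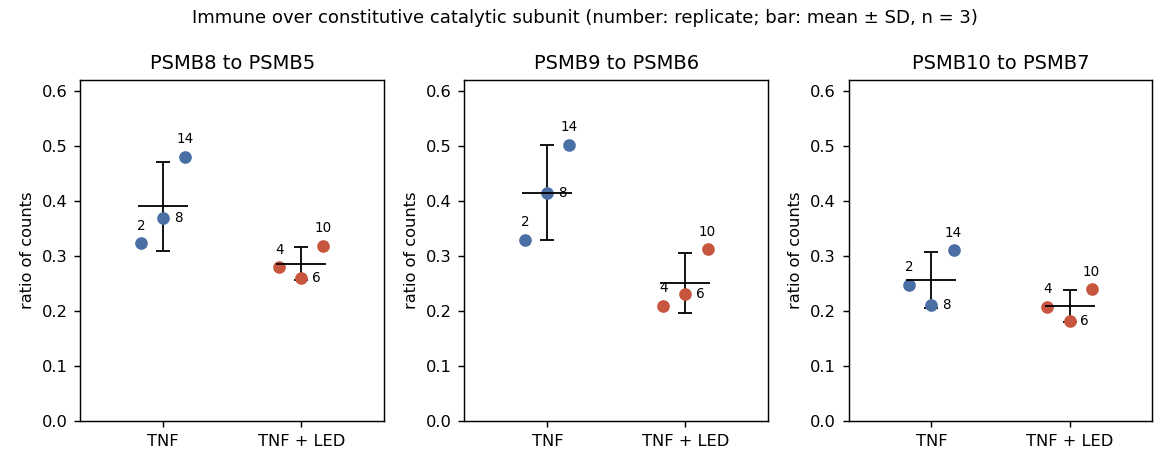
Ratio of counts of each immune subunit to its constitutive counterpart in each library (numbers are replicates, bars are mean ± SD, n = 3; axes start at 0). The TNF and LED libraries separate for PSMB8 to PSMB5 and PSMB9 to PSMB6 and overlap for PSMB10 to PSMB7. In the 2 pairs that separate, the margin between TNF replicate 2 and LED replicate 10 is small.

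Levels between genes were compared per kilobase of exon. PSMB4 stood highest at 209 CPM per kilobase (mean of 6 libraries), followed by PSMD2 at 189, PSMB7 at 173, PSMB1 at 150 and PSMA6 at 130. Among the cutting subunits, the constitutive PSMB7, PSMB5 (114) and PSMB6 (82.5 CPM per kilobase) stood above the immune PSMB8 (36.2), PSMB10 (31.7) and PSMB9 (25.6 CPM per kilobase). Per kilobase, the immune to constitutive ratios lay between 0.146 and 0.475 over the 3 pairs and 6 libraries, so the constitutive subunit was the higher one in every library. The lowest of the 46 tested proteasome genes at this scale was the assembly factor PSMG4 at 1.42 CPM per kilobase.

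The 19S cap had 13 of 17 subunits with points above 0, a median log2 fold change of 0.15, and none past the test. Groups did not overlap in 6 of the 17, all higher with LED (PSMC2, PSMC6, PSMD1, PSMD6, PSMD12 and PSMD14), as was the assembly factor PSMD10. Over the 46 tested proteasome genes, 7 were higher in this way and 2 lower, beside 16.2% of all tested genes in each direction. The 7 higher genes were thus near the share over all genes. PSMD12, a subunit of the lid that anchors other lid subunits to the cap, had the largest difference of the proteasome genes. Its promoter stretch from 200 to 51 bases before the start (RefSeq, GRCh38.p14, chr17:67366628-67366777, minus strand, no annotated exon) is shown for that reason, with capitals on the match to TGACNNNGC.
PSMD12: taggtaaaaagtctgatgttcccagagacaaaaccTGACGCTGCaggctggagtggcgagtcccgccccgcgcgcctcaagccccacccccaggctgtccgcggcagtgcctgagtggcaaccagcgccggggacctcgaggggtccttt

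PSMD12 was at 81.3, 64.4 and 72.1 CPM with TNF and at 110, 145 and 98.3 CPM with LED. All LED libraries lay above all TNF libraries, with LED replicate 6 highest and TNF replicate 8 lowest. The means were 72.6 ± 8.44 and 118 ± 24.3 CPM (SD, n = 3 each), a log2 fold change of 0.70 ± 0.20 (95% interval 0.26 to 1.14, edgeR adjusted p = 0.0743). DESeq2 gave an adjusted p of 0.0138, and leaving out TNF replicate 8 and LED replicate 6 gave 0.44 with an edgeR adjusted p of 0.0384. None of the 6 single omissions called it (edgeR adjusted p 0.0839 to 0.204). Over all alternatives that changed the libraries, scaling, filter or tool, its log2 fold change lay between 0.44 and 0.81.

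PSMC6, one of the 6 ATPases of the ring that pulls substrates in, was at 74.9, 50.8 and 76.0 CPM with TNF and 86.5, 110 and 82.3 CPM with LED. The groups did not overlap, with TNF replicate 8 lowest and LED replicate 6 highest, and the log2 fold change was 0.47 ± 0.21 (edgeR adjusted p = 0.227). PSMC2, another ATPase, was at 127, 112 and 124 CPM with TNF and 128, 176 and 128 CPM with LED, so that LED replicates 4 and 10 lay just above TNF replicate 2. PSMD6, a lid subunit, was at 95.2, 79.4 and 93.4 CPM with TNF and 109, 130 and 97.9 CPM with LED (log2 fold change 0.33 ± 0.18, edgeR adjusted p = 0.309). PSMD14, the enzyme that cuts ubiquitin chains off substrates at the cap, was at 102, 99.7 and 105 CPM with TNF and 116, 158 and 108 CPM with LED, with LED replicate 6 far above the rest. In the other direction, PSMD2, the scaffold that docks ubiquitin receptors and the subunit with the highest CPM, was at 604, 960 and 705 CPM with TNF and 574, 638 and 551 CPM with LED. Its groups overlapped, TNF replicate 8 was the high library, and the log2 fold change was -0.36 ± 0.20 (edgeR adjusted p = 0.330). The ATPase PSMC4 was at 99.6, 129 and 104 CPM with TNF and 121, 168 and 109 CPM with LED (log2 fold change 0.26), and the ubiquitin receptor PSMD4 at 107, 140 and 114 CPM and 106, 134 and 97.1 CPM (log2 fold change -0.10), both with overlap. The other ATPases PSMC3 and PSMC5 stood at -0.12 and -0.11 and the other non-ATPase subunits PSMD3, PSMD7, PSMD8 and PSMD11 at 0.15, 0.20, 0.05 and 0.05 on the log2 fold change scale. PSMC1 (log2 fold change 0.10) and PSMD13 (0.01) were nearest to no change among PSMC and PSMD genes.

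The 7 genes with non-overlapping higher values shared the same highest and lowest library, and their GC content was low. LED replicate 6 was the highest and TNF replicate 8 the lowest of the 6 libraries for all 7. Their selection fixes that the highest library is an LED and the lowest a TNF library, but not which of the 3. In the other 39 genes, LED replicate 6 was highest in 22 and TNF replicate 8 lowest in 4. Those genes were not selected in this way, so the counts of the 2 sets are not directly comparable. The GC content of the 7 ran from 37.9% to 46.5% with a median of 43.8%, against a median of 51.8% in the other 39. Across the 46 genes, log2 CPM of TNF replicate 8 against the 6-library mean was higher at higher GC content (Pearson's r = 0.71, a description over genes of 1 library), and in the other libraries r lay between -0.46 and 0.10. The same relation over 13618 tested genes had r = 0.47 in TNF replicate 8, so it was not limited to proteasome genes. The log2 fold change itself had r = -0.46 with GC content over the 46 genes and -0.06 over 13618 tested genes. With a GC trend removed from each library, PSMD12 stood at 0.51 (edgeR adjusted p = 0.149), PSMC6 at 0.31, PSMD14 at 0.22, PSMD6 at 0.21, PSMD10 at 0.10, PSMC2 at 0.08 and PSMD1 at 0.02, and the median of the 17 cap subunits was 0.03 in place of 0.15. The median over all tested genes moved down as well, from 0.01 to -0.07. The cap median was 0.06 without TNF replicate 8 and LED replicate 6. The part of GC content and of these libraries in the differences was not tested further.

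**Figure D4:**
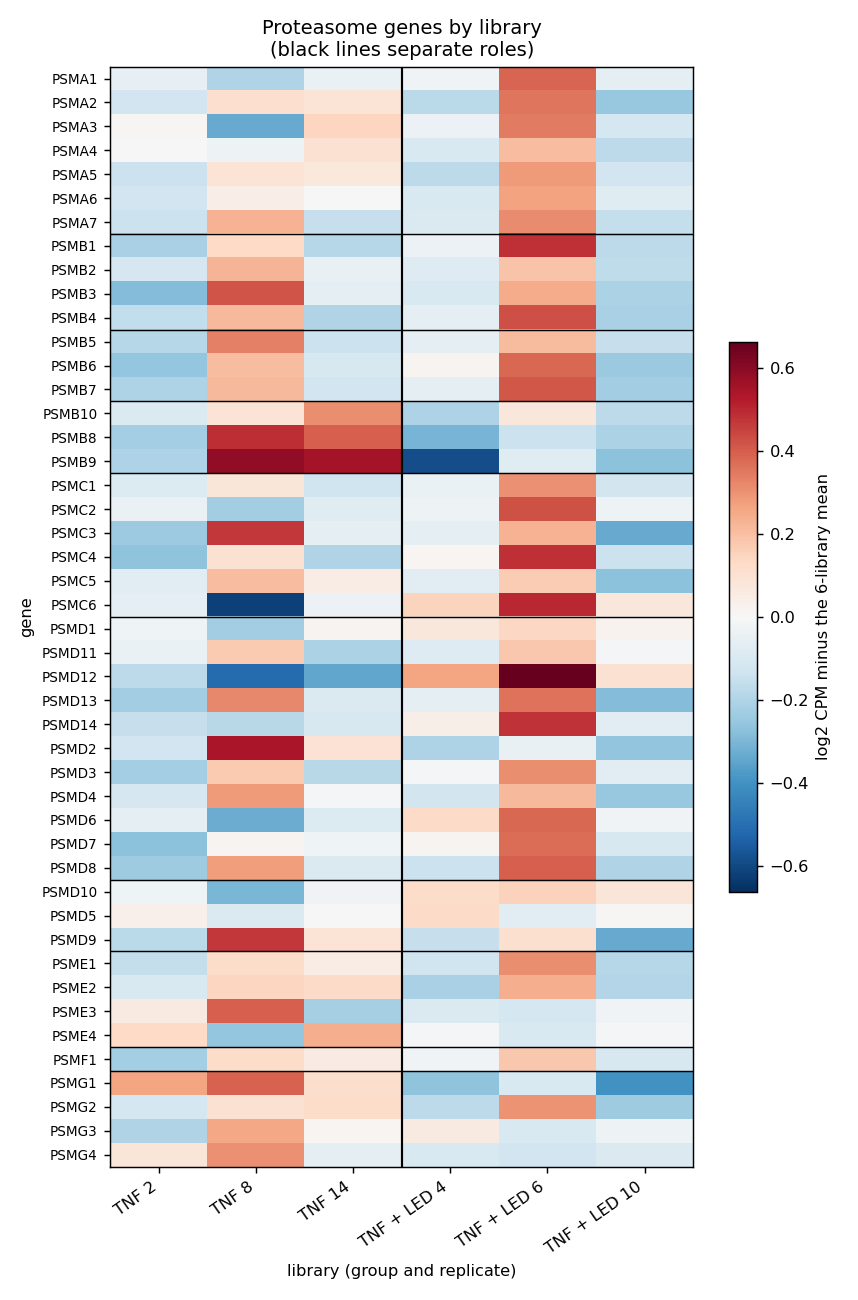
Log2 CPM of each proteasome gene minus its mean over the 6 libraries (colour), with libraries in columns and genes in rows by role. LED replicate 6 is the highest library for 29 of 46 genes and TNF replicate 8 for 14, and PSMB8 and PSMB9 are highest in TNF replicates 8 and 14.

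**Figure D5:**
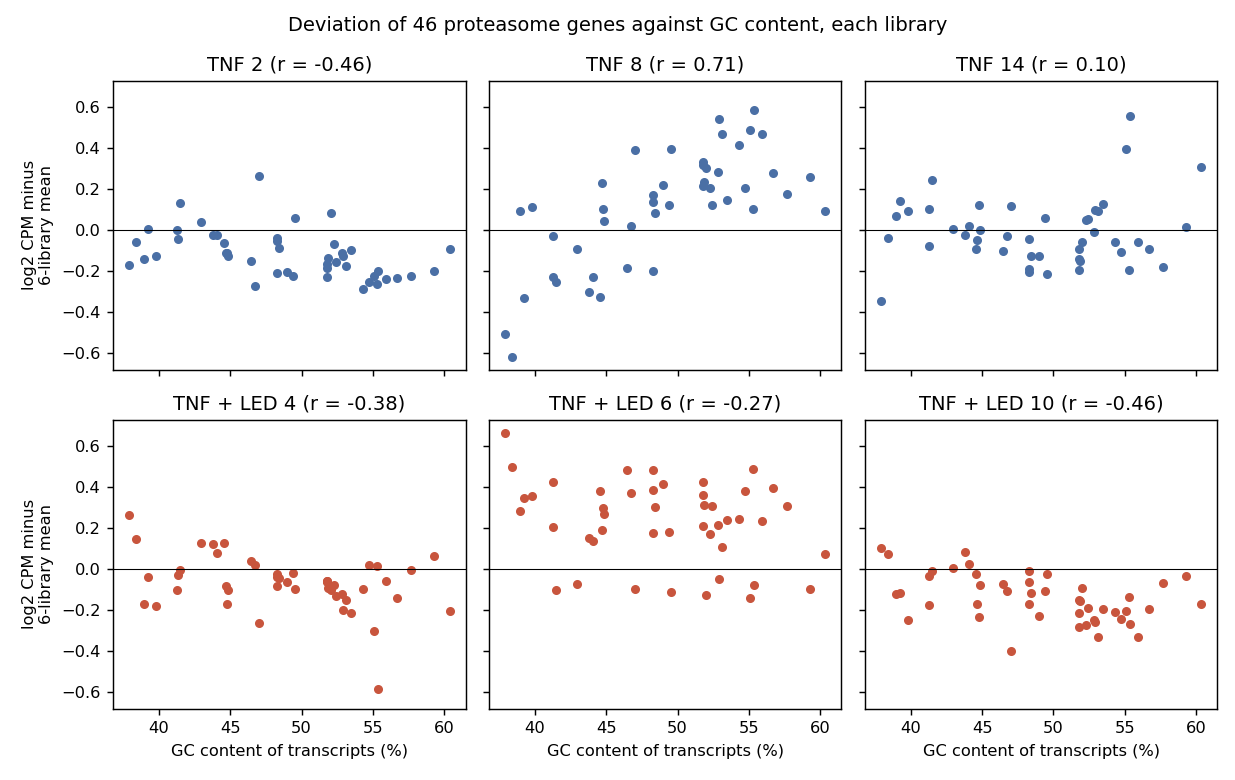
Log2 CPM of the 46 tested proteasome genes minus the 6-library mean (vertical axis) against GC content of the transcripts in % (horizontal axis), 1 panel per library. The points climb with GC content in TNF replicate 8 (r = 0.71) and slope down in TNF replicate 2 and LED replicate 10 (r = -0.46 in each).

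The 4 core assembly factors PSMG1 to PSMG4, which help alpha rings form as 2 pairs (PSMG1 with PSMG2, PSMG3 with PSMG4), all had points below 0 with a median log2 fold change of -0.14, and none passed the test. PSMG1 was at 41.8, 45.7 and 37.7 CPM with TNF and at 29.02, 32.5 and 26.4 CPM with LED. Each TNF library lay above each LED library, with TNF replicate 8 and LED replicate 6 the highest of their groups. The means were 41.7 ± 3.97 and 29.3 ± 3.09 CPM (SD, n = 3 each), a log2 fold change of -0.51 ± 0.17 (95% interval -0.89 to -0.13, edgeR adjusted p = 0.114). None of the 6 single omissions called it (adjusted p 0.119 to 0.322), while the adjusted p was 0.0293 without both TNF replicate 8 and LED replicate 6 and 0.0489 with the GC trend removed, both alternatives added after seeing the data. Its partner PSMG2 was at 30.2, 35.1 and 35.5 CPM with TNF and 28.97, 40.2 and 27.7 CPM with LED, a log2 fold change of -0.06 with overlapping groups. Whether PSMG1 and PSMG2 differ in response was not tested. PSMG4 was at 8.66, 10.1 and 7.87 CPM with TNF and 7.63, 7.49 and 7.68 CPM with LED, without overlap but by a small margin (log2 fold change -0.22 ± 0.19, edgeR adjusted p = 0.527). Groups that do not overlap, lower with LED, made up 16.2% of all tested genes. The cap assembly factors PSMD5, PSMD9 and PSMD10, which chaperone the ATPase ring, had log2 fold changes of 0.04, -0.27 and 0.23.

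The alternative activators that can cap the core in place of 19S did not pass the test. PSME1 and PSME2 form an interferon-inducible ring, PSME3 a nuclear ring, and PSME4 is a single large protein. PSME2 was at 149, 176 and 174 CPM with TNF and 137, 188 and 139 CPM with LED (log2 fold change -0.10 ± 0.18, edgeR adjusted p = 0.792). PSME3 was at 160, 202 and 132 CPM with TNF and 144, 142 and 152 CPM with LED (log2 fold change -0.18 ± 0.19, edgeR adjusted p = 0.626). Both had overlapping groups, and the TNF libraries of PSME3 were more spread than the LED libraries. PSME1 was nearest to no change (log2 fold change 0.00), with 113, 137 and 130 CPM against 115, 156 and 110 CPM. PSMF1, a binding protein that acts on core activity and transport, was at 89.4, 114 and 109 CPM with TNF and 103, 118 and 97.2 CPM with LED (log2 fold change 0.03 ± 0.17, edgeR adjusted p = 0.936).

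At an adjusted p below 0.05, 5.17% of all tested genes passed the test, and 2.73% were lower. The single gene of the 47 that passed was PSMC3IP, which fell with LED, so the count of calls was not above that share. Despite its symbol, PSMC3IP is not a proteasome subunit but a partner of the recombinases that pair homologous DNA strands. Its promoter stretch from 200 to 51 bases before the start (RefSeq, GRCh38.p14, chr17:42577882-42578031, minus strand, no annotated exon) is shown because it is the one called gene, with capitals on a match to the heat shock motif GAANNTTC.
PSMC3IP: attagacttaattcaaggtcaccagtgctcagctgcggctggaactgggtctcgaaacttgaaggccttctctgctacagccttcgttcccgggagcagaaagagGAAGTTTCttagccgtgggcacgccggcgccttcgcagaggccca

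PSMC3IP was at 13.4, 18.3 and 12.7 CPM with TNF and at 7.83, 6.11 and 6.77 CPM with LED. All TNF libraries lay above all LED libraries, and the means were 14.8 ± 3.05 and 6.91 ± 0.868 CPM (SD, n = 3 each). The log2 fold change was -1.10 ± 0.21 (95% interval -1.58 to -0.62, edgeR adjusted p = 0.0278). The call was lost when TNF replicate 14 (adjusted p = 0.0667) or LED replicate 4 (0.0829), 6 (0.115) or 10 (0.0758) was left out, with log2 fold changes between -1.20 and -0.92 over the 6 omissions. One of its exons overlaps MLX in GENCODE 29.

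Among 25 partners of the proteasome outside these prefixes, 1 rose and 24 did not pass the test, with a median log2 fold change of 0.00. Over all tested genes, 2.44% were higher and 2.73% lower at this threshold. Groups did not overlap in 3 partners with higher and 4 with lower values, beside 16.2% of all tested genes in each direction. ZFAND2A, an arsenite-inducible protein that binds the proteasome, rose 5.96-fold. It was at 16.7, 23.1 and 16.9 CPM with TNF and 123, 149 and 65.1 CPM with LED, with no overlap and LED replicate 10 lowest of its group (means 18.9 ± 3.64 and 112 ± 43.1 CPM, log2 fold change 2.57 ± 0.31, edgeR adjusted p = 0.00498). TXNL1, a thioredoxin-like protein bound to the 19S cap, was at 71.5, 73.9 and 68.9 CPM with TNF and 102, 145 and 94.7 CPM with LED, without overlap. Its log2 fold change was 0.67 ± 0.20 with an edgeR adjusted p of 0.0825. The adjusted p was 0.0199 with DESeq2, 0.0190 without both TNF replicate 8 and LED replicate 6, and 0.0974 to 0.233 over the 6 single omissions. With the GC trend removed the log2 fold change was 0.46 (edgeR adjusted p = 0.276), and the GC content of TXNL1 is 39.9%. NFE2L1, the transcription factor that raises proteasome subunit genes when proteasome activity is low, was at 332, 403 and 339 CPM with TNF and 253, 199 and 289 CPM with LED (log2 fold change -0.54 ± 0.19, edgeR adjusted p = 0.133). The core maturation factor POMP and the ubiquitin receptor ADRM1 had log2 fold changes of 0.16 and 0.25 with overlapping groups.

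None of 17 class I antigen presentation genes passed the edgeR test either; 12 had points below 0 and 5 above, with a median log2 fold change of -0.21, and 2 were lower at an unadjusted p below 0.05, beside 11.8% of all tested genes. TAPBP, which loads peptides onto class I molecules, was at 316, 351 and 360 CPM with TNF and 229, 190 and 277 CPM with LED, without overlap (log2 fold change -0.56 ± 0.19, edgeR adjusted p = 0.113). DESeq2 gave TAPBP an adjusted p of 0.0499, and the edgeR values over the 6 single omissions were 0.107 to 0.310. NLRC5, an activator of class I genes, was at 52.1, 85.4 and 68.0 CPM with TNF and 49.9, 32.6 and 45.3 CPM with LED, also without overlap (log2 fold change -0.68 ± 0.24, edgeR adjusted p = 0.125). Groups did not overlap in 3 of the 17 genes with lower and 1 with higher values, beside 16.2% of all tested genes in each direction. TAP1, the promoter neighbour of PSMB9, was at 217, 427 and 378 CPM with TNF and 218, 230 and 262 CPM with LED. As in PSMB9 and PSMB8, TNF replicates 8 and 14 were high and TNF replicate 2 was at the LED level (log2 fold change -0.53 ± 0.25, edgeR adjusted p = 0.245).

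Promoter windows of 300 bases (250 before to 50 after the start) were matched for 43 of the 49 genes in RefSeq GRCh38.p14, and 5 motifs were searched on both strands; PSMB6 and PSMB7 had no entry. The antioxidant response motif TGACNNNGC was in 15 of the 43 (34.9%), against 18.0% of all 14783 genes with a window. The interferon-response motif (GAAA, any 2 bases, GAAA) was in 7 (16.3%), against 4.23% of genes, namely PSMA4, PSMB4, PSMB8, PSMB10, PSME1, PSME2 and PSMG4. The same letters, GAAAGCGAAA, stood in PSMB10, PSME2 and PSMG4, and their reverse complement, TTTCGCTTTC, in PSMB8 and PSME1. The gamma-activated motif TTCNNNGAA was in 8 (18.6%, against 9.06%), the heat shock motif (GAANNTTC or TTCNNGAA) in 4 (9.30%, against 14.9%) and the NF-kB motif (searched as GGGA, any 2 bases, TTCC and as GGG, any 2 bases, TTTCC) in 1 (2.33%, against 3.95%), PSMD6. These matches are descriptions of letters in a window, and matches of different motifs may overlap.

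Fold changes are given here by motif, as a description. Among tested proteasome genes with a window, the 7 with the interferon-response motif had a median log2 fold change of -0.10 and the 33 without it 0.04. The 15 with the antioxidant response motif had a median of -0.06 and the 25 without it 0.05. The 7 with the gamma-activated motif had a median of -0.03 and the 33 without it 0.03. The 3 with the heat shock motif had a median of 0.039 and the 37 without it 0.0031. PSMD6, the 1 gene with the NF-kB motif, stood at 0.33. Among the genes sharing the interferon letters, PSMB8 stood at -0.47, PSMB10 at -0.21, PSMG4 at -0.22, PSME2 at -0.10 and PSME1 at 0.00. PSMB9 had no match to the interferon-response motif and stood at -0.65, the lowest of the 33 genes without it. None of them passed the test, and the differences between them were not tested.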

How the data were processed

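Per the labels' protocols, RNA was extracted with Trizol, depleted of ribosomal RNA and primed at random. Per the submitters' processing notes, bcl2fastq 2.0, HISAT2, StringTie, DESeq2 and limma were used, without stated roles; the notes name the mouse build mm10 although the samples are human, so the human build remains unnamed in the sources used. The authors deposited estimated counts per gene as whole numbers. Of values from 1 to 7, 67.2% were 4 or 5, so 1 fragment may be worth about 4 units; the limit of a 0 was set at 3 fragments (12 units). This limit covers counting error only, while the 95% intervals of fold changes come from the edgeR fit and include the spread between libraries.

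Counts as deposited were tested with edgeR 4.0.16 in R 4.3.3 (filterByExpr, TMM, robust quasi-likelihood, two-sided, threshold 0.05). CPM used TMM-scaled totals, and the SE is the log2 fold change over the square root of F. Lengths and GC content came from GENCODE 29. Of the 49 genes, 24 have an exon overlapping another gene and 12 have named pseudogenes, so their counts are less certain.

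Replicates differed from each other beyond sampling noise (chi-square per degree of freedom 104 to 508 within groups), and none was a copy. The chi-square was computed on deposited units, so it is inflated about 4-fold if 1 fragment is worth about 4 units. Nothing in the labels states separate cultures: p-values then reflect the spread of these samples alone, and that spread may be technical. The members, lists and motifs were chosen with earlier results of these data known. Values per library are given for PSMB5 to PSMB10, called genes, and the 2 lowest p in each prefix group, and the gene nearest to no change in each group is named; from the 2 further lists, called genes and the 2 lowest p. Others given with values (PSMB1, PSMB4, PSMC2, PSMC4, PSMD2, PSMD4, PSMD14, PSME1, PSMG2, NFE2L1, TAP1, POMP, ADRM1) were chosen after their values were seen. Alternatives were other filters and scalings, DESeq2 1.42.0, limma-voom (limma 3.58.1), counts divided by 4, single libraries left out and other thresholds; leaving out TNF replicate 8 and LED replicate 6 together and removing a GC trend were added after seeing the data. The procedure was tested on simulated data.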

Additional observations from a re-analysis of the deposited data

How the results depend on the processing

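No paired analysis was possible because the groups share no replicate number. With DESeq2, 874 genes of all tested were higher and 879 lower, in place of 336 and 377. Without TNF replicate 8 and LED replicate 6 the counts were 763 and 906, with the GC trend removed 512 and 870, at a threshold of 0.01 53 and 17, and at 0.1 695 and 776. Removing the GC trend also moved the median log2 fold change over all tested genes, from 0.01 to -0.07. Leaving out 1 library gave 59 to 314 higher and 21 to 423 lower, with 70 and 43 without TNF replicate 14, 83 and 33 without LED replicate 4, 59 and 21 without LED replicate 6, and 143 and 76 without LED replicate 10. Of the proteasome-prefix genes, 1 was higher (PSMD12) with DESeq2, without TNF replicate 8 and LED replicate 6, and at 0.1, in place of 0. Those lower were 2 (PSMC3IP and PSMG1) without that pair of libraries and with the GC trend removed, and 0 at 0.01, in place of 1. Leaving out 1 library gave 0 to 2 lower, with 2 (PSMC3IP and PSMB9) without TNF replicate 2 and 0 without TNF replicate 14 or LED replicate 4, 6 or 10. The 3 immune to constitutive ratios stayed lower with LED under every alternative run. Over single omissions their log2 differences lay from -0.56 to -0.28 for PSMB8 to PSMB5, -0.90 to -0.58 for PSMB9 to PSMB6 and -0.41 to -0.13 for PSMB10 to PSMB7. The separation of the groups did not hold throughout. With the sum of PSMB5, PSMB6 and PSMB7 as denominator, the exact permutation p was 0.2 for PSMB8, 0.1 for PSMB9 and 0.3 for PSMB10. The groups of PSMB8 thus overlapped in that alternative.

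The sign changed in genes near 0, none of them called. PSMA5 stood at -0.00075 with no filter, PSMB5 at 0.0067 with a mean of at least 1 CPM, and with library totals PSMF1 stood at -0.0062, PSMA5 at -0.041, PSMD13 at -0.030 and PSME1 at -0.039. With limma-voom, PSMA5 was at -0.010 and PSME1 at -0.0097. Without TNF replicate 8 and LED replicate 6, PSMB5 was at 0.063, PSMA3 at -0.15, PSME3 at 0.015, PSMA5 at -0.11, PSMD13 at -0.0076 and PSME1 at -0.11. With the GC trend removed, PSMA3 was at -0.046, PSMF1 at -0.032, PSMA5 at -0.23, PSMD13 at -0.025 and PSME1 at -0.031. Over single omissions the ranges were -0.13 to 0.17 for PSMB5, -0.067 to 0.25 for PSMB6, -0.12 to 0.23 for PSMB7, -0.031 to 0.23 for PSMA3, -0.16 to 0.10 for PSMA5, -0.038 to 0.18 for PSMC1, -0.19 to 0.19 for PSMD13, -0.17 to 0.094 for PSME1, -0.083 to 0.10 for PSMF1 and -0.24 to 0.040 for PSMG2. The cause of these changes was not tested.

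Small changes were hard to detect at this size. Counts were simulated for 13794 genes with the spread of these samples. A log2 change of 0.5 was called in 1 of 50 genes, of 1 in 15 of 50, of 2 in 43 of 50 and of -1 in 18 of 50. There were also 18 false calls, a larger share of all calls than the adjusted p threshold allows. The calls in the real data, PSMC3IP among them, may therefore include more false ones than that threshold states. Most differences among proteasome genes were below 0.5, so the absence of calls does not show that the genes were unaltered.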
